A study of Mus musculus with 6 samples.

Results

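The miR-23/27/24 clusters are a pair of duplicated miRNA genes, called here the a cluster and the b cluster. Their 5 main products are mmu-miR-23a-3p and mmu-miR-27a-3p of the a cluster, mmu-miR-23b-3p and mmu-miR-27b-3p of the b cluster, and mmu-miR-24-3p, which both clusters encode. These 5 were picked by name from 495 mature miRNAs in the kidney count table, by a rule that did not use their values. Earlier results of these data were known when the choice was made. Small RNA was sequenced from kidney tissue of 3 CIH samples and 3 Control samples, all from male balb/c mice. CIH is chronic intermittent hypoxia, in which inspired oxygen fell to 6% within 60 seconds and returned to 21% within the next 60 seconds. Mice had 30 such cycles each hour, 8 hours daily, over 8 weeks. Control mice were kept in a chamber flushed with room air. No source used here gives their age. Kidney tissue was not split by cell type, so fewer cells of a type and less miRNA per cell cannot be told apart. Whether every library stands for a separate mouse is not stated in the labels or methods, and p-values then measure only the spread between these 6 samples.

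Each cluster is transcribed as a long primary RNA, from which the hairpins of miR-23, miR-27 and miR-24 are cut and then trimmed to a 3p and a 5p strand. A miRNA finds its targets mainly through its seed, bases 2 to 8, so members with the same seed can bind the same sites. The clusters are known from endothelium, where miR-23 and miR-27 promote vessel sprouting. miR-27 is also known to restrain lipid storage and adipocyte differentiation, and miR-24 to act on endothelial survival. Members of each family have been reported to rise under hypoxia in cultured cells.

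For miR-27, the mature sequences show why the members were read as a pair. They are given 5′ to 3′ with the seed in capitals, from RefSeq on GRCm38.p6, which held 4 of the 5 members and 413 of the 495 miRNAs. The member without a sequence there was mmu-miR-23b-3p, so it is not printed.

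mmu-miR-23a-3p: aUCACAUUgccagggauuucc
mmu-miR-27a-3p: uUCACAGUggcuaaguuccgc
mmu-miR-27b-3p: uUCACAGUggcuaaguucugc
mmu-miR-24-3p: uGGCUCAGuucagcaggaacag

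mmu-miR-27a-3p and mmu-miR-27b-3p share their seed and their first 18 bases, and differ by 1 substitution, C19U, with positions counted from the 5′ end of mmu-miR-27a-3p. How the authors assigned reads that match both is not given in the sources used here, so exchange of reads between the 27a and 27b values was not tested. Among the matched miRNAs of the table, no other shared bases 2 to 8 with a printed member. mmu-miR-23b-3p was not among those matched, so the seeds of the miR-23 pair were not compared. mmu-miR-128-3p, a miRNA best known from brain, carries a seed shifted by 1 base from that of miR-27.

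The opposite strands tell the clusters apart for miR-24, because mmu-miR-24-2-5p comes only from the a cluster and mmu-miR-24-1-5p only from the b cluster.

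mmu-miR-24-2-5p: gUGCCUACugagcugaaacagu
mmu-miR-24-1-5p: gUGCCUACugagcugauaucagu
mmu-miR-27a-5p: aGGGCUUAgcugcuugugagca
mmu-miR-27b-5p: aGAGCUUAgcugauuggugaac

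The miR-24 5p strands share the seed and the first 16 bases and end differently. The miR-27 5p strands differ at 8 of 22 positions, among them the seed substitution G3A, counted from the 5′ end of mmu-miR-27a-5p.

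On GRCm38, the a cluster lies on the plus strand of chromosome 8, with Mir23a from 84208518 to 84208592, Mir27a from 84208672 to 84208758 and Mir24-2 from 84208815 to 84208921. It is intergenic and 404 bp long, and the last bases of Mir24-2 overlap the first exon of the long noncoding gene Gm26532. The b cluster lies on the plus strand of chromosome 13, with Mir23b from 63300484 to 63300557, Mir27b from 63300712 to 63300784 and Mir24-1 from 63301208 to 63301275. It spans 792 bp inside the protein-coding gene 2010111I01Rik, and Fancc, a Fanconi anaemia gene, runs over it on the opposite strand. Mir23b overlaps no annotated exon and is intronic, Mir27b overlaps an exon of 1 transcript and Mir24-1 overlaps exons of 4. On the strand opposite the miR-24 hairpins, Mir3074-2 and Mir3074-1 are annotated, and their product mmu-miR-3074-5p is complementary to mmu-miR-24-3p over 20 bases.

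**Figure D1:**
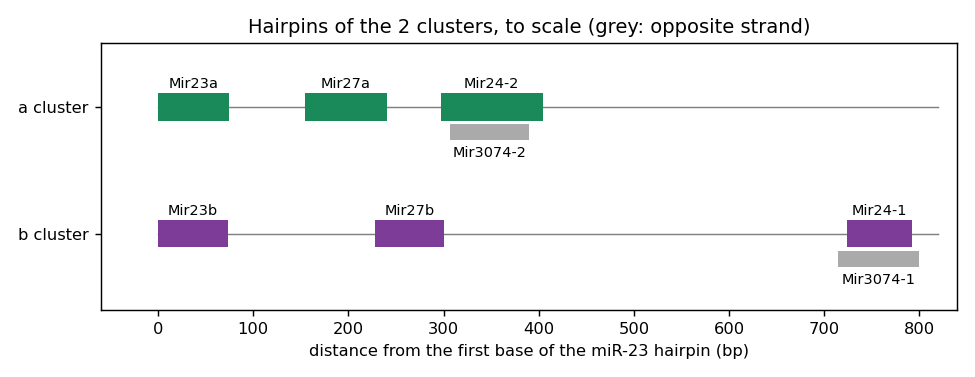
The hairpins of the a cluster (green) and of the b cluster (purple) are drawn to scale by their distance in bp from the first base of the miR-23 hairpin, with the opposite-strand Mir3074 hairpins in grey. The a cluster is the shorter, at 404 bp against 792 bp, and its miR-27 and miR-24 hairpins are 56 bp apart, against 423 bp in the b cluster.

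CPM here is counts per 1000000 of the library total after TMM scaling, a correction for differences in composition. Totals of the counts used ran from 5905653 to 7622445 in CIH libraries and from 5431797 to 7741499 in Control libraries. Control replicate 3 stood apart from the rest. It had 1072 CPM of mmu-miR-141-3p, a miRNA of epithelia, and the other 5 libraries had 346 to 407 CPM. The epithelial mmu-miR-200c-3p was also highest there, at 1413 CPM. The more abundant mmu-miR-200a-3p (14362 CPM) and mmu-miR-200b-3p (19752 CPM) lay there within the range of the other libraries. The urothelial mmu-miR-205-5p was at 0.50 CPM in CIH replicate 1 and at 18.6 to 38.8 CPM elsewhere. The tubule markers fixed for the tissue check (5 of 5 measured) summed to between 166979 and 192498 CPM in CIH and between 162174 and 225064 CPM in Control, the highest being Control replicate 3. The endothelial markers (2 of 3 measured) summed to 52882 to 56041 CPM in CIH and 49948 to 59944 CPM in Control. The smooth muscle markers (4 of 4) summed to 46514 to 51465 CPM in CIH and 46134 to 53299 CPM in Control. Leukocyte, erythroid and striated muscle markers summed to at most 1097, 7302 and 417 CPM in CIH and at most 1084, 6685 and 383 CPM in Control. The groups overlapped in the sum of each of these 6 marker lists.

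The 5 members were abundant kidney miRNAs in all 6 libraries, and no difference between CIH and Control was detectable for any of them with 3 libraries a group. In the order of their mean level they were mmu-miR-27b-3p, mmu-miR-27a-3p, mmu-miR-23b-3p, mmu-miR-24-3p and mmu-miR-23a-3p, at ranks 10, 31, 37, 39 and 64 of the 495 miRNAs. Together they summed to 50543, 54322 and 51508 CPM in CIH libraries, and to 48908, 51969 and 44961 CPM in Control libraries. Before TMM scaling they held 5.28%, 5.35% and 5.34% of the counts in CIH libraries, and 4.86%, 5.27% and 4.18% in Control libraries. Each of these shares has a 95% Wilson interval at most 0.0376 percentage points wide, which covers counting error only. The raw shares did not overlap between groups, and Control replicate 3 had the lowest. The gap was within counting error. The intervals of CIH replicate 1 (5.27% to 5.30%) and Control replicate 2 (5.25% to 5.29%) overlap. The scaled sums overlapped, so the separation depends on the scaling.

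mmu-miR-27b-3p, the b cluster copy of miR-27, was the most abundant member. It had 37801, 39901 and 38254 CPM in CIH libraries, and 35737, 39001 and 32501 CPM in Control libraries. The groups overlapped, since Control replicate 2 lay above 2 of the CIH libraries. Its log2 fold change was 0.11 (SE 0.10, 95% interval -0.11 to 0.34, adjusted p = 0.82 with edgeR's quasi-likelihood model). SE is the standard error of the log2 fold change, CIH over Control, and p-values were adjusted by Benjamini-Hochberg over all 495 miRNAs. Without Control replicate 3 it was 0.04, and without Control replicate 2 it was 0.18.

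mmu-miR-27a-3p, its a cluster copy, had 4726, 5431 and 4736 CPM in CIH libraries, and 4585, 4546 and 4223 CPM in Control libraries. Every CIH library lay above every Control library, and this also held with DESeq2 size factors or library totals alone in place of TMM. Over all 495 miRNAs tested, every CIH library lay above every Control library in 5.25%, and the groups did not overlap in either direction in 12.5%. mmu-miR-27a-3p was the only member of the 5 whose groups did not overlap. The difference did not pass the test, with a log2 fold change of 0.16 (SE 0.10, 95% interval -0.07 to 0.38, edgeR adjusted p = 0.79). Without CIH replicate 2, the highest library, it was 0.09.

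The miR-23 copies had log2 fold changes near 0. mmu-miR-23b-3p had 3333, 4009 and 3718 CPM in CIH libraries, and 3677, 3638 and 3789 CPM in Control libraries. CIH replicate 1 was the lowest of the 6 and CIH replicate 2 the highest, with the Control libraries between them. Its log2 fold change was -0.01 (95% interval -0.24 to 0.22, edgeR adjusted p = 0.998), and it was 0.06 without CIH replicate 1 and 0.005 without Control replicate 3.

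mmu-miR-23a-3p, the scarcest of the 5, had 1097, 1401 and 1399 CPM in CIH libraries, and 1365, 1264 and 1282 CPM in Control libraries. CIH replicate 1 again was lowest, and the other 2 CIH libraries lay above all Control libraries. The log2 fold change was -0.01 (95% interval -0.27 to 0.26, edgeR adjusted p = 0.998) and turned to 0.10 without CIH replicate 1. It was also above 0, at 0.01 and 0.05, with DESeq2 size factors and with library totals alone, as was that of mmu-miR-23b-3p, so neither copy has a direction.

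mmu-miR-24-3p had 3586, 3579 and 3401 CPM in CIH libraries, and 3544, 3518 and 3166 CPM in Control libraries. The groups overlapped, and its log2 fold change was 0.05 (SE 0.10, 95% interval -0.17 to 0.26, edgeR adjusted p = 0.94). Without Control replicate 3 it was -0.01. The table lists this miRNA once for each hairpin, with totals of 143625 and 143622 counts. The entries differ by 2 counts in Control replicate 1 and by 1 count in Control replicate 2, so nearly all reads stand in both and mmu-miR-24-3p cannot be divided between the clusters.

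**Figure D2:**
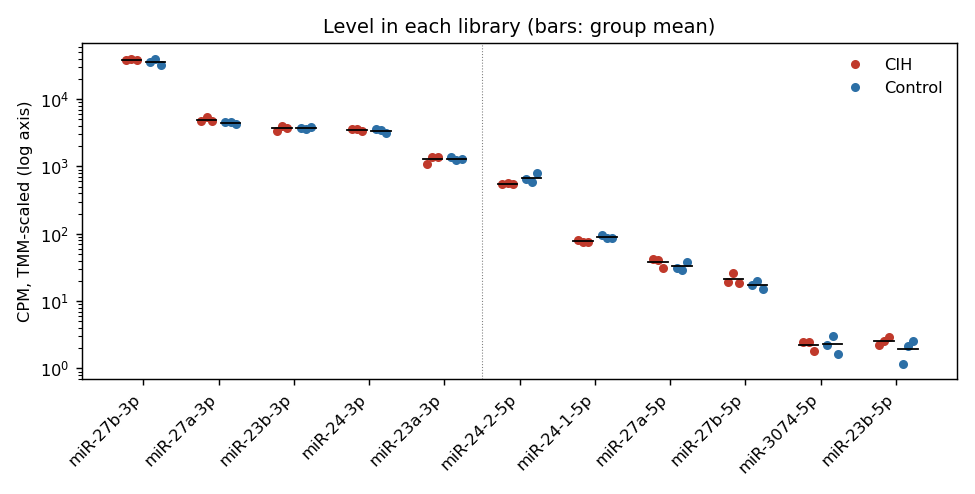
Each point is the level of a miRNA in a library, in TMM-scaled CPM on a log axis, with CIH in red left of Control in blue and a bar at each group mean (n = 3). The 5 members, left of the dotted line, run from means of 1299 CPM in CIH and 1304 CPM in Control for mmu-miR-23a-3p to 38652 and 35746 CPM for mmu-miR-27b-3p, and among the members only mmu-miR-27a-3p has all its CIH points above its Control points.

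Levels of neighbours in this order were apart except for mmu-miR-23b-3p and mmu-miR-24-3p. The lowest mmu-miR-27a-3p library, at 4223 CPM, lay above the highest mmu-miR-23b-3p library, at 4009 CPM. mmu-miR-23b-3p and mmu-miR-24-3p overlapped within CIH, where the lowest mmu-miR-23b-3p library, at 3333 CPM, lay under the highest mmu-miR-24-3p library, at 3586 CPM. Mature miRNAs are nearly equal in length, so these levels need no length correction. Differences in how well each RNA ligates to adapters were not tested.

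The spread between libraries was larger than counting error for every member. The counting error of a single library was 0.182% to 0.216% of the count for mmu-miR-27b-3p and 0.976% to 1.198% for mmu-miR-23a-3p. The coefficient of variation of mmu-miR-23a-3p was 13.4% among CIH libraries and 4.10% among Control libraries. That of mmu-miR-27b-3p was 2.86% among CIH libraries and 9.09% among Control libraries. The highest of the 6 libraries was 1.13 times the lowest for mmu-miR-24-3p and 1.29 times the lowest for mmu-miR-27a-3p.

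None of the 5 members reached an unadjusted p under 0.05, where 7.88% of all miRNAs did by edgeR (2.83% higher and 5.05% lower in CIH), and none was past the study thresholds of an unadjusted p of at most 0.05 with an absolute fold change of at least 1.5. Those thresholds called 2.02% of all miRNAs as higher and 1.82% as lower in CIH. An adjusted p under 0.05 was reached by 0 of the 495 miRNAs with edgeR, DESeq2 or limma-voom, with 39, 29 and 38 at an unadjusted p under 0.05. The median log2 fold change of the 5 was 0.05, against -0.003 over all miRNAs. The upper end of the 95% interval was below a fold of 1.5 for each of the 5, the largest being 1.31-fold for mmu-miR-27a-3p, and the lowest lower end was 0.83-fold, for mmu-miR-23a-3p.

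**Figure D3:**
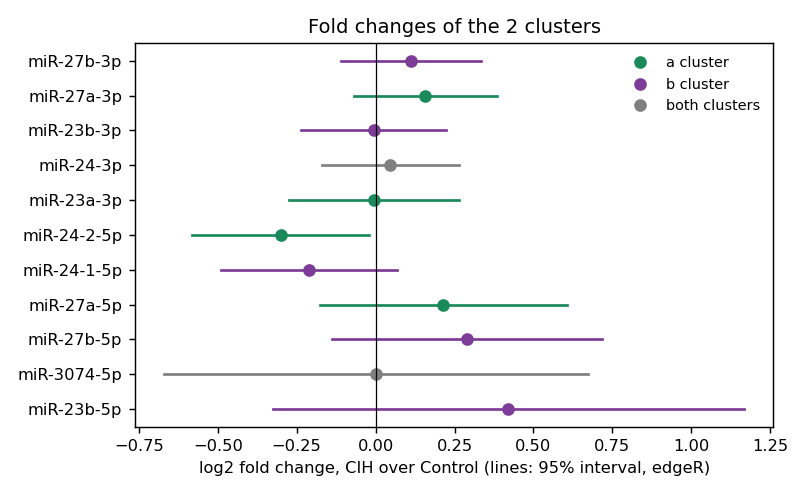
Points are log2 fold changes of CIH over Control and lines their 95% intervals from edgeR, with the a cluster in green, the b cluster in purple and products of both in grey. Only the interval of mmu-miR-24-2-5p, from -0.58 to -0.02, leaves out 0, and its adjusted p is 0.58.

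The 5p strands of miR-24 had lower values in CIH libraries than in Control libraries without overlap, in both clusters, though neither passed the adjusted test. mmu-miR-24-2-5p of the a cluster had 548, 563 and 543 CPM in CIH libraries, and 655, 588 and 794 CPM in Control libraries. The CIH libraries lay close together, and the highest value was that of Control replicate 3. Its log2 fold change was -0.30 (SE 0.13, unadjusted p = 0.038, edgeR adjusted p = 0.58). It was -0.18 without Control replicate 3 (unadjusted p = 0.11, edgeR), the library with high mmu-miR-141-3p. Whether that library's make-up has a part in this value was not tested.

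mmu-miR-24-1-5p of the b cluster had 81.1, 76.7 and 74.5 CPM in CIH libraries, and 96.9, 86.0 and 85.9 CPM in Control libraries. All CIH libraries again lay below all Control libraries. Its log2 fold change was -0.21 (SE 0.12, 95% interval -0.49 to 0.07, edgeR adjusted p = 0.79), and it was -0.25 without Control replicate 3. With library totals alone in place of TMM, the groups of mmu-miR-24-1-5p overlapped and those of mmu-miR-24-2-5p did not. Every CIH library lay below every Control library in 7.27% of all miRNAs tested. The tests of both 5p strands failed the correction, and 1 of the 6 measured other strands reached an unadjusted p under 0.05 against 7.88% of all miRNAs.

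The ratio of the 3p to the 5p strand of miR-24 was therefore taken within each library, where scaling cancels. The log2 ratio of mmu-miR-24-3p to mmu-miR-24-2-5p was 2.71, 2.67 and 2.65 in CIH libraries, and 2.44, 2.58 and 2.00 in Control libraries. The log2 ratio of mmu-miR-24-3p to mmu-miR-24-1-5p was 5.47, 5.54 and 5.51 in CIH libraries, and 5.19, 5.35 and 5.20 in Control libraries. Every CIH ratio exceeded every Control ratio for both hairpins. The mean differences were 0.34 and 0.26 on the log2 scale with all libraries, and 0.17 and 0.23 without Control replicate 3. Of 144 such strand pairs in the table, 7.64% had every CIH library above every Control library and 9.72% did not overlap in either direction. The miR-24 pairs share their 3p counts, so they are not separate observations of it, and they were singled out after their values were seen, so no test is given. The separation was not particular to mmu-miR-24-3p. Ratios of mmu-miR-27a-3p to mmu-miR-24-2-5p and of mmu-miR-27b-3p to mmu-miR-24-1-5p also did not overlap, with mean log2 differences of 0.45 and 0.33. With mmu-miR-23a-3p and mmu-miR-23b-3p in their place the groups overlapped, with differences of 0.28 and 0.20. The ratio of mmu-miR-27a-3p to mmu-miR-24-2-5p had to separate, since each strand alone did so, in opposite directions. All these ratios reuse the miR-24 5p strands, which were singled out after their values were seen. No share over all miRNAs was taken for ratios between different hairpins.

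The 5p strands of miR-27 had positive log2 fold changes, as their 3p strands had, and none passed the test. mmu-miR-27a-5p had 41.7, 41.4 and 30.7 CPM in CIH libraries, and 30.9, 29.0 and 38.1 CPM in Control libraries. CIH replicate 3 and Control replicate 3 crossed, and the log2 fold change was 0.21 (SE 0.18, edgeR adjusted p = 0.81). Leaving out 1 library moved it to between 0.14, without CIH replicate 1 or Control replicate 1 or 2, and 0.34, without CIH replicate 3, and it was 0.33 without Control replicate 3. mmu-miR-27b-5p had 19.2, 25.8 and 18.6 CPM in CIH libraries, and 17.3, 19.96 and 14.99 CPM in Control libraries. Its groups overlapped too, with a log2 fold change of 0.29 (SE 0.19, edgeR adjusted p = 0.79) that was 0.12 without CIH replicate 2 and 0.18 without Control replicate 3. The 3p to 5p log2 ratio averaged 7.04 ± 0.22 in CIH and 7.10 ± 0.27 in Control for miR-27a (SD, n = 3 each), and 10.85 ± 0.22 in CIH and 11.01 ± 0.08 in Control for miR-27b. The miR-27a difference, CIH minus Control, was -0.05 and changed sign to 0.06 without CIH replicate 1 and to 0.04 without Control replicate 2, and was -0.21 without Control replicate 3 and -0.17 without CIH replicate 3. The miR-27b difference was -0.16, and -0.04 without CIH replicate 2.

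The scarcest strands gave little information. mmu-miR-23b-5p had 18, 19 and 18 counts in CIH libraries, and 9, 12 and 17 counts in Control libraries. The groups did not overlap in raw counts but did in TMM-scaled CPM, with a log2 fold change of 0.42 (SE 0.34, edgeR adjusted p = 0.81) that was 0.10 without Control replicate 1 and 0.67 without Control replicate 3. mmu-miR-3074-5p, read from the strand opposite miR-24, had 20, 18 and 11 counts in CIH libraries, and 17, 17 and 11 counts in Control libraries. mmu-miR-24-3p had at least 19386 counts in every library, and whether the counting used strand is not given in the sources used here. mmu-miR-23a-5p, mmu-miR-3074-1-3p and mmu-miR-3074-2-3p had no entry in the count table, so they have no values here.

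**Figure D4:**
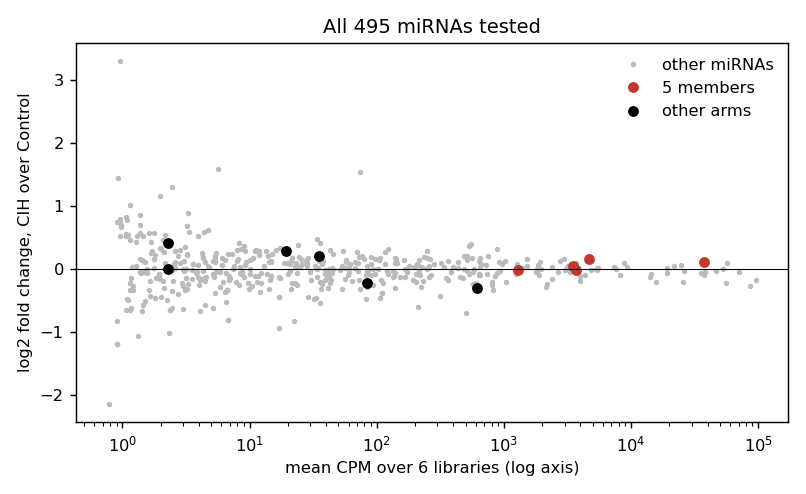
The log2 fold change of CIH over Control is plotted against the mean CPM over 6 libraries on a log axis, for the 5 members in red, the 6 measured other strands in black and the remaining miRNAs in grey. The members sit in the narrow part at high levels, between -0.01 and 0.16, while scarce miRNAs scatter more widely.

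The clusters had unequal shares of the reads of each pair, and for miR-27 the order turned round between the strands. These are shares of mature strand reads, and how much of each hairpin was made was not measured. Of the reads of both miR-23 3p copies, mmu-miR-23a-3p took 24.8%, 25.9% and 27.3% in CIH libraries, and 27.1%, 25.8% and 25.3% in Control libraries. Of the reads of both miR-27 3p copies, mmu-miR-27a-3p took 11.11%, 11.98% and 11.02% in CIH libraries, and 11.37%, 10.44% and 11.50% in Control libraries. The b cluster thus gave most of the 3p reads in each library, and more so for miR-27 than for miR-23.

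For the 5p strands of miR-24 and miR-27 the a cluster gave most of the reads. No share was taken for miR-23 5p, where only mmu-miR-23b-5p of the b cluster was measured. mmu-miR-24-2-5p took 87.1%, 88.0% and 87.9% of the miR-24 5p reads in CIH libraries, and 87.1%, 87.2% and 90.2% in Control libraries. mmu-miR-27a-5p took 68.5%, 61.6% and 62.3% of the miR-27 5p reads in CIH libraries, and 64.2%, 59.3% and 71.8% in Control libraries. The widest 95% Wilson intervals of these shares were 1.04, 0.251, 2.15 and 11.6 percentage points for miR-23 3p, miR-27 3p, miR-24 5p and miR-27 5p. The a cluster share was therefore at most 27.3% in any library for the miR-23 and miR-27 3p pairs. It was at least 59.3% for the miR-24 and miR-27 5p pairs.

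**Figure D5:**
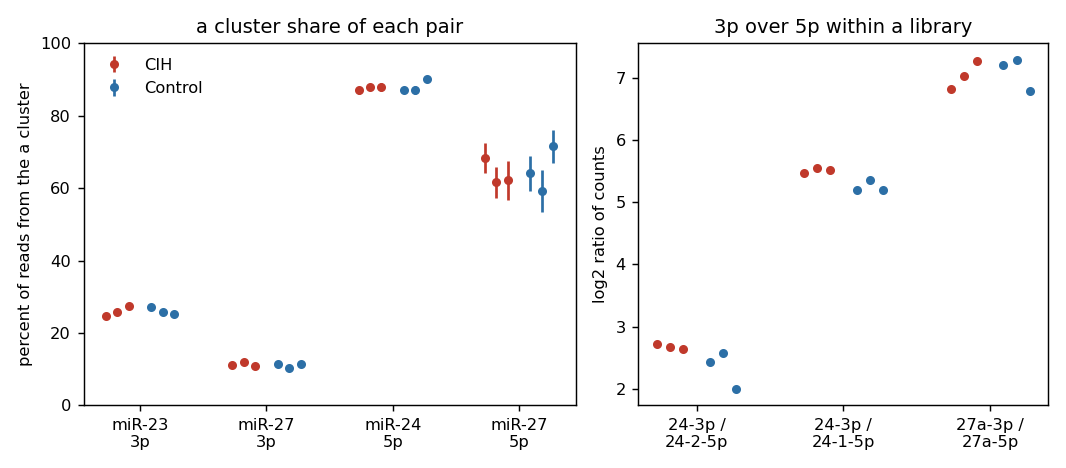
The left panel gives the percent of reads of each pair that came from the a cluster, per library with 95% Wilson intervals, CIH in red and Control in blue. The right panel gives the log2 ratio of 3p to 5p counts per library, in which the CIH points lie above the Control points for both miR-24 pairs and mix with them for miR-27a.

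The balance between the clusters overlapped between CIH and Control for each pair. The log2 ratio of mmu-miR-23a-3p to mmu-miR-23b-3p averaged -1.51 ± 0.10 in CIH and -1.51 ± 0.07 in Control (SD, n = 3 each). The log2 ratio of mmu-miR-27a-3p to mmu-miR-27b-3p averaged -2.96 ± 0.08 in CIH and -3.002 ± 0.086 in Control. The differences, CIH minus Control, were -0.004 and 0.04, each smaller than the SD of either group. Leaving out 1 library gave -0.05 to 0.04 for miR-23 and -0.01 to 0.07 for miR-27, so neither has a direction. The log2 ratio of mmu-miR-24-2-5p to mmu-miR-24-1-5p averaged 2.83 ± 0.07 in CIH and 2.91 ± 0.26 in Control, with 3.21 in Control replicate 3. The difference was -0.08, and it turned to 0.07 without Control replicate 3.

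Within a cluster, miR-27 exceeded miR-23 by more in the b cluster. mmu-miR-27a-3p to mmu-miR-23a-3p had a log2 ratio of 2.11, 1.95 and 1.76 in CIH libraries, and 1.75, 1.85 and 1.72 in Control libraries. mmu-miR-27b-3p to mmu-miR-23b-3p had a log2 ratio of 3.504, 3.315 and 3.36 in CIH libraries, and 3.28, 3.42 and 3.10 in Control libraries. Both ratios overlapped between the groups, with differences of 0.17 and 0.13, and the lowest b cluster ratio was above the highest a cluster ratio. The a cluster difference was 0.09 without CIH replicate 1 and 0.26 without CIH replicate 3. The b cluster difference was 0.07 without CIH replicate 1, 0.04 without Control replicate 3 and 0.20 without Control replicate 2.

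Across the 6 libraries, each of the 4 miR-23 and miR-27 members was nearer to its paralog than to any other member from its own cluster. Likeness was taken as the mean absolute difference of log2(CPM + 0.5), each miRNA centred on its own mean, against 166 miRNAs with a mean of at least 100 CPM. mmu-miR-23a-3p was nearest to mmu-miR-23b-3p, at 0.06, against a median of 0.16 over the 166, followed by mmu-miR-99b-5p and mmu-miR-143-5p. Its cluster neighbour mmu-miR-27a-3p was at position 22. mmu-miR-27a-3p was nearest to mmu-miR-652-3p, at 0.04, then to mmu-miR-27b-3p and mmu-miR-106b-3p, both at 0.06.

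mmu-miR-27b-3p was nearest to mmu-miR-22-5p, mmu-miR-196a-5p and mmu-miR-181a-5p, at 0.02, 0.03 and 0.03, and had mmu-miR-27a-3p at position 8. It was nearly as close to mmu-miR-24-3p, at position 14, with 0.058 against 0.055 for mmu-miR-27a-3p. mmu-miR-23b-3p was nearest to mmu-miR-30e-3p, mmu-miR-378c and mmu-miR-26a-5p, and had mmu-miR-23a-3p at position 9. mmu-miR-24-3p was nearest to mmu-miR-652-3p, mmu-miR-199b-3p and mmu-miR-199a-3p, and its nearest member was mmu-miR-27b-3p at position 12. These positions rest on 6 libraries and on differences of a few hundredths of a log2 unit or less. Reads exchanged between near-identical paralogs would bring them closer, which was not tested.

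None of the other miRNAs listed because they have been reported to rise under hypoxia in cultured cells was called. The 9 were mmu-miR-210-3p, mmu-miR-26a-5p, mmu-miR-26b-5p, mmu-miR-103-3p, mmu-miR-107-3p and 4 strands of miR-181 (mmu-miR-181a-5p, mmu-miR-181b-5p, mmu-miR-181c-5p and mmu-miR-181a-1-3p). Of these, 0 reached an unadjusted p under 0.05 by edgeR, where 7.88% of all miRNAs did, so a list of this size says little. The log2 fold change was positive for 2 and negative for 7, with a median of -0.02. Among miR-181 strands not on the list, and picked out after their values were seen, mmu-miR-181b-1-3p (log2 fold change 0.62, unadjusted p = 0.029) and mmu-miR-181d-5p (log2 fold change -0.29, unadjusted p = 0.040) were under 0.05 by edgeR. mmu-miR-210-3p, the best known target of hypoxia-inducible factors among miRNAs, had 54.8, 64.8 and 76.3 CPM in CIH libraries, and 88.9, 81.3 and 73.6 CPM in Control libraries. The groups overlapped, and its log2 fold change was -0.32 (SE 0.16, edgeR adjusted p = 0.71). It was -0.20 without CIH replicate 1, and the unadjusted p was under 0.05 in 3 of 15 alternatives, the lowest being 0.027 with edgeR without CIH replicate 3, at -0.44. mmu-miR-128-3p, with the shifted miR-27 seed, had 245, 231 and 217 CPM in CIH libraries, and 239, 242 and 196 CPM in Control libraries. Its log2 fold change was 0.03 (SE 0.12, edgeR adjusted p = 0.95), and it turned to -0.06 without Control replicate 3 and to -0.01 without CIH replicate 1.

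Endothelial markers, from the cells in which the clusters are best known, did not pass the test either. mmu-miR-126a-3p, which maintains vessel integrity, had 54146, 54349 and 50939 CPM in CIH libraries, and 53562, 47971 and 58038 CPM in Control libraries. Of the 2 endothelial, 4 smooth muscle, 5 leukocyte, 5 tubule and 3 striated muscle markers measured, 0 reached an unadjusted p under 0.05 by edgeR, and of the 4 erythroid markers 1 did, higher in CIH, against 7.88% of all miRNAs. The median log2 fold changes of these 6 lists ran from -0.05 to 0.05, against -0.003 over all miRNAs.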

How the data were processed

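Small RNA libraries were made from 1 µg of total RNA per kidney sample with a ligation-based kit, per the labels. The authors trimmed adapters with cutadapt, aligned reads with Bowtie and deposited raw read counts per mature miRNA. Their versions, mismatch settings and treatment of reads with several matches were not given in the sources used here. This table held 584 entries for 495 names. Of the 44 names listed more than once (133 entries), only the largest entry by total count was used. Counts above 0 in at least 3 libraries were required, which removed none.

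CIH was compared with Control by edgeR 4.0.16 in R 4.3.3 (quasi-likelihood test after TMM normalization, with no covariate), with Benjamini-Hochberg adjustment over all 495 miRNAs. Fold changes are log2, CIH over Control, at a biological coefficient of variation of 15.7%. Intervals of shares came from scipy 1.17.1. Ratios between members carry no test. The script was tested on simulated data. The members, lists and tests were chosen with earlier results of these data known. The miRNAs named are the 5 members, the other strands of their hairpins, the 3 nearest profiles of each, miRNAs with a related seed, the hypoxia list and examples of marker lists. mmu-miR-141-3p, mmu-miR-200a-3p, mmu-miR-200b-3p, mmu-miR-200c-3p, mmu-miR-205-5p and strands of miR-181 off the list were named after their values were seen. Alternatives covered scaling, DESeq2 1.42.0, limma 3.58.1, no filter, a mean of at least 10 CPM, repeated entries, a replicate block and each library left out. For ratios other than those between the a and b copies of a 3p strand, leaving out each library was added after seeing the data. Positions came from RefSeq and GENCODE M21, both on GRCm38, and the hairpin positions were the same in both. RT-qPCR was not analysed here.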

Additional observations from a re-analysis of the deposited data

How the results depend on the processing

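The log2 fold changes of mmu-miR-27a-3p and mmu-miR-27b-3p stayed above 0 in each of 15 alternatives (0.09 to 0.22 and 0.04 to 0.18), and no member or other strand reached an adjusted p under 0.05. mmu-miR-24-2-5p stayed below 0 (-0.39 to -0.18), with an unadjusted p under 0.05 in 7 of 15. The 15 include a fit with no filter, which repeats the main fit because the filter removed none, and it is among these 7. mmu-miR-23a-3p turned to 0.007 with DESeq2 size factors and with the DESeq2 Wald test, 0.054 with library totals alone and 0.014 with every entry kept, and mmu-miR-23b-3p to 0.0062, 0.0062, 0.055 and 0.013. mmu-miR-3074-5p turned to -0.0016 with the DESeq2 Wald test, -0.037 with entries of a name summed and -0.013 with the replicate block. Leaving out 1 library gave -0.063 to 0.10 for mmu-miR-23a-3p, -0.070 to 0.062 for mmu-miR-23b-3p, -0.0097 to 0.071 for mmu-miR-24-3p, -0.20 to 0.23 for mmu-miR-3074-5p and -0.063 to 0.089 for mmu-miR-128-3p. The count of miRNAs past the study thresholds, 10 higher and 9 lower in CIH, became 5 and 5 with the DESeq2 Wald test and 1 and 1 among the 302 miRNAs averaging at least 10 CPM. With 1 library left out it was 4 to 10 higher and 6 to 13 lower. Without CIH replicate 2 it was 4 higher. The 5 members held 4.92% of CIH counts when entries of a name were summed, against 5.32%, since the total then counts some reads more than once. Apart from these constructions, the cause was not tested. The deviations of libraries with the same number had correlations of mixed sign (0.26, -0.34 and -0.11 over 167 miRNAs). With 3 libraries a group these cannot show whether the numbers pair the libraries. The replicate block gave 10 higher and 11 lower. mmu-miR-23b-5p and mmu-miR-3074-5p have no value at a mean of at least 10 CPM, and their counts, 20 or fewer per library, limit what can be read from them.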
